A study of Mus musculus with 4 samples.

Results

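The genes examined here encode 7 subunits of the GABA-A receptor, namely Gabra2, Gabra3, Gabra4, Gabra5, Gabrb1, Gabrb2 and Gabrd. They were taken as a named list from 21951 protein-coding genes of the annotation. Their accessibility was read from single-nucleus ATAC-seq, in which a transposase cuts open chromatin and each cut site is counted inside peaks. Nuclei came from the cortex (2 libraries) and the hippocampus (2 libraries) of P30 mice, all of the genotype Dlx6aCre;Sun1/sfGFP, and were sorted as DAPI+/GFP+. In such mice Cre under Dlx6a elements switches on a GFP tag of the nuclear envelope in forebrain GABAergic neurons, so cells of that lineage are enriched and no other genotype or treatment was compared. The number and sex of animals behind each library are not given in the sources used here, so the spread between these libraries may be technical. The tests draw that spread largely from all genes or regions together. Their p-values and SEs therefore do not measure the spread of a single gene between libraries.

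GABA-A receptors are chloride channels assembled from several subunits, usually alpha, beta and gamma or delta. The alpha and delta subunits set where the receptor sits and how it responds: alpha-5 and delta subunits are typical of receptors outside the synapse that carry tonic inhibition, whereas alpha-2 and alpha-3 are found at many synapses. Beta subunits take part in the GABA binding site and in trafficking. Interneurons themselves carry these receptors, and the main interneuron classes are named by Pvalb, Sst, Vip and Lamp5. Pvalb and Sst cells arise in the medial ganglionic eminence (MGE), while Vip and many Lamp5 cells arise in the caudal ganglionic eminence (CGE).

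In GRCm38, Gabra2 (ENSMUSG00000000560), Gabra4 (ENSMUSG00000029211) and Gabrb1 (ENSMUSG00000029212) lie on the same chromosome at chr5:70957597-71095849, chr5:71569749-71658308 and chr5:71658113-72149037. Gabra3 (ENSMUSG00000031343) lies at chrX:72432681-72656848, Gabra5 (ENSMUSG00000055078) at chr7:57407672-57510059, Gabrb2 (ENSMUSG00000007653) at chr11:42419757-42629028 and Gabrd (ENSMUSG00000029054) at chr4:155384980-155398112.

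The 4 libraries held 2355 to 5576 nuclei and 32005984 to 117290059 cut sites in peaks. Cortex replicate 2 stood apart, with a median of 7352 cut sites per nucleus and 61965 peaks, against medians of 12686 to 47236 and 98419 to 157220 peaks in the others. Peaks were called in each library separately, so a gene value moves with the length its own peaks cover, and that length is given beside it. Between 11 and 47 barcodes were shared by any pair of libraries. Pan-GABA markers were accessible in every library, at a summed 720 to 1165 cut sites per 1000000 of the library's total (CPM). Nuclei rich in oligodendrocyte-lineage accessibility made up 2.93% to 9.52%, more in both hippocampus libraries than in either cortex library. Of the other marker lists, excitatory genes summed to 40.0 to 68.7 CPM with 4 of 6 at 0 in some library, astrocyte genes to 168 to 210.1 with 2 of 6, and microglia genes to 201 to 265 with 2 of 5.

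The sequences below are those of the regions on which the comparisons turn. They are inner regions, inside introns and far from the gene start, whose accessibility differed between groups of nuclei. Each is a window of 200 bases at the centre of the stretch that peaks of all 4 libraries cover, read from the genome of the files' build, GRCm38. Capitals mark the letters AACAAT (a SOX core) where present on either strand. The names give the distance of the whole region's centre from the gene start.
Gabrb2 +103 kb (chr11:42523491-42523690, + strand): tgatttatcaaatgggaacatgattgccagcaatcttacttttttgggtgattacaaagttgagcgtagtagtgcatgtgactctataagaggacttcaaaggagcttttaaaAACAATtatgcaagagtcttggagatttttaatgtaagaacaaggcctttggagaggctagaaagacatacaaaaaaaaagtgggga
Gabrb2 +152 kb (chr11:42571695-42571894, + strand): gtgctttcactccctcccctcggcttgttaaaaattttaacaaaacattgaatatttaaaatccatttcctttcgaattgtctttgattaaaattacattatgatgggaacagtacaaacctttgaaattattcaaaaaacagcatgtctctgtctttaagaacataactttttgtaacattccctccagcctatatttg
Gabrb1 +319 kb (chr5:71976669-71976868, + strand): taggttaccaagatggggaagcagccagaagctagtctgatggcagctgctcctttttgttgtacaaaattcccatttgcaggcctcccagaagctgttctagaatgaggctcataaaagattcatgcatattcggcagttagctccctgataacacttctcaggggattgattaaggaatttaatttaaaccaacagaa
Gabrb1 +329 kb (chr5:71987105-71987304, + strand): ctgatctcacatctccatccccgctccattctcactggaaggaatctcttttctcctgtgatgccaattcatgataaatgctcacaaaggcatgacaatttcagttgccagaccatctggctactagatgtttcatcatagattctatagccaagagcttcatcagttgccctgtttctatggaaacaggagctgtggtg

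Start regions are shown for 3 places where an accessible region covering a start also differed. These windows run from 250 bases before to 50 bases after a RefSeq start (GRCm38.p6) and are written along the gene's own strand, with capitals for GGGCGG (GC box), CCAAT and TATAAA on either strand. RefSeq entries were matched for 6 of the 7 genes.
Gabra2 promoter (chr5:71095800-71096099, - strand): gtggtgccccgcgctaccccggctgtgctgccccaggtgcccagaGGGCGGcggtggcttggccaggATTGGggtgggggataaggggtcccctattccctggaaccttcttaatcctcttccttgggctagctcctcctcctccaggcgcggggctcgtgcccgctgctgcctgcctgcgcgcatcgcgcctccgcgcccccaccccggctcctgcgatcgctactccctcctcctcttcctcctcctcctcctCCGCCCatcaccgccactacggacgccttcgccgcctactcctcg
Gabrb2 promoter, first start (chr11:42420190-42420489, + strand): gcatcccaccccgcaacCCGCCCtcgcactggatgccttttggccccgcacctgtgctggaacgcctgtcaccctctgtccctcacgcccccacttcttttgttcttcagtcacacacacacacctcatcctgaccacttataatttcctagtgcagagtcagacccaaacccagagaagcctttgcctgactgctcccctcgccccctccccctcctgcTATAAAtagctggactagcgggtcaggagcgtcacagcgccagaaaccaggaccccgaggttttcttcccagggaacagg
Gabrb1 promoter, second start (chr5:71699682-71699981, + strand): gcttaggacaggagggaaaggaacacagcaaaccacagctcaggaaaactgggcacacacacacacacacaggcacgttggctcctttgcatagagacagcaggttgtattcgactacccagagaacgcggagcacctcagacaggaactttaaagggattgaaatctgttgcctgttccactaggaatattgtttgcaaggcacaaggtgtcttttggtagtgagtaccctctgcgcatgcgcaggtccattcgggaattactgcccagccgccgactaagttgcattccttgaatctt

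In composition the inner windows differed from the start windows. The Gabrb2 +103 kb and +152 kb windows had a GC content of 36% and 31.5%, and the Gabra2 promoter one of 70% with 25 CpG dinucleotides, against medians of 52.7% and 7 over 32817 promoters. The first Gabrb2 start held TATAAA, which 13.6% of promoters hold. AACAAT stood once in the Gabrb2 +103 kb window, once in that of Gabrb2 +116 kb, and in 6.14% of 46698 windows of equal length over all common regions. The windows over all common regions were centred on each region's midpoint, not on the stretch that every library covers, so their placement differs from that of the inner windows. None of TAATTA (a homeodomain core), AACAAT and AGGTCA (a nuclear receptor half-site) was in the other 3 printed inner windows. TAATTA stood once in the Gabrb1 +401 kb and the Gabrb2 +86 kb windows and in 4.41% of all windows, and AGGTCA, in 9.43% of all windows, stood in none of the 10 windows of the inner regions examined. These matches are descriptions of the letters and not of binding.

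The first comparison set cortex against hippocampus, with the nuclei of each library summed, so that fewer nuclei of a type and less accessibility per nucleus cannot be told apart. No subunit gene passed the test, where 0.123% of all genes tested did. Among the alpha subunits, Gabra2 had 54.1 and 46.7 CPM in cortex replicates 1 and 2 and 56.4 and 66.8 in hippocampus replicates 1 and 2. Both hippocampus libraries lay above both cortex libraries, an order that is easily met with 2 libraries per group. The log2 fold change was 0.29 ± 0.34 (SE, hippocampus over cortex). Gabra4 had 80.6 and 43.6 CPM in cortex and 43.0 and 49.3 in hippocampus, so in CPM cortex replicate 1 was high and the other 3 libraries were alike. Its peaks covered 9.44 and 2.03 kb in cortex and 5.33 and 4.69 kb in hippocampus. Per covered kb it had 8.54 and 21.4 CPM in cortex and 8.07 and 10.5 in hippocampus, so by that measure cortex replicate 2 was highest. Gabra5, whose subunit is abundant in hippocampus, had 56.7 and 37.9 CPM in cortex and 55.3 and 56.2 in hippocampus, and the groups overlapped. Gabra3 had the fewest cut sites, with 10.4 CPM in cortex replicate 1, 7.29 and 8.22 in hippocampus and no peak in cortex replicate 2. As means ± SD (n = 2 libraries), Gabra5 stood at 47.3 ± 13.3 CPM in cortex and 55.7 ± 0.622 in hippocampus.

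The beta subunit genes had the most cut sites in total, over the longest covered length (4.73 to 18.0 kb for Gabrb2 and 2.86 to 12.6 kb for Gabrb1, against 1.78 to 5.17 kb for Gabra2 and 1.37 to 6.34 kb for Gabra5). Gabrb2 had 154 and 96.3 CPM in cortex and 147 and 115 in hippocampus, and Gabrb1 had 115 and 68.6 CPM in cortex and 78.4 and 82.4 in hippocampus. In both genes the 2 cortex libraries lay on either side of the hippocampus libraries. The log2 fold changes were 0.07 ± 0.30 for Gabrb2 (95% interval -0.51 to 0.64) and -0.19 ± 0.33 for Gabrb1 (-0.83 to 0.45). These intervals still admit differences of either sign.

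Gabrd, the delta subunit gene of extrasynaptic receptors, had lower values in hippocampus but did not pass the test. It had 31.0 and 16.2 CPM in cortex and 12.7 and 14.3 in hippocampus, so both cortex libraries lay above both hippocampus libraries. The log2 fold change was -0.80 ± 0.40, with an unadjusted p of 0.048 and an adjusted p of 1.00 over 16326 genes (edgeR quasi-likelihood, Benjamini-Hochberg). Without cortex replicate 1 it was -0.26 ± 0.55 (adjusted p = 0.87), so its size rests largely on that library. Its peaks covered 4.06 kb in cortex replicate 1 but 0.711 kb in cortex replicate 2, against 2.03 and 1.25 kb in hippocampus. In the single region that all libraries shared, over the Gabrd start (chr4:155394498-155398553), the values were 39.3 and 17.5 CPM in cortex and 11.6 and 13.8 in hippocampus, and the log2 fold change was -1.16 ± 0.43 (adjusted p = 0.65). In oligodendrocyte-rich nuclei Gabrd stood at 33.2 and 32.8 CPM in the hippocampus libraries, against 12.1 and 13.2 in their other nuclei, while in cortex it was 7.48 and 12.5 against 31.3 and 16.3. Each of these rests on 12 to 91 cut sites, and their part in the result was not tested. Gabra2, Gabra4, Gabra5, Gabrb1 and Gabrb2 were lower in oligodendrocyte-rich nuclei than in the others in all 4 libraries.

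**Figure D1:**
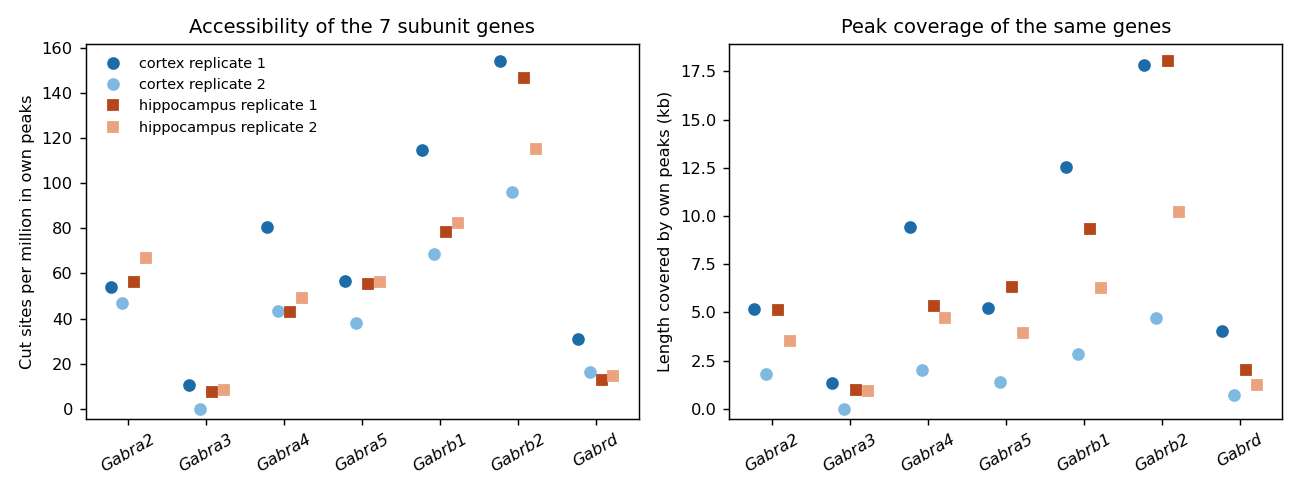
The left panel plots CPM in own peaks for each of the 7 genes in each library, and the right panel the length that the library's own peaks cover, in kb. Cortex replicate 2 has the least covered length for each gene. Both hippocampus libraries lie above both cortex libraries for Gabra2 and below both for Gabrd. With 2 libraries per group such an order is easily met, and its share over all genes was not counted.

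None of the 20 common regions of these genes (merged peaks holding a peak of every library) passed in edgeR, where 0% of all common regions did. Over all regions 3432 had an unadjusted p under 0.05, and DESeq2 called 352 regions. Per kb of covered length the mean levels ran from 16.6 CPM for Gabra2 through 15.4 for Gabra5, 13.7 for Gabrb1, 12.1 for Gabra4 and Gabrb2 and 12 for Gabrd to 8.25 for Gabra3, the last over 3 libraries. Neighbours in this order could not be told apart, since the range over libraries was 10.5 to 26.2 for Gabra2 and 6.26 to 22.7 for Gabrd.

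The second comparison asked whether these genes differ with the accessibility of Pvalb, Sst, Vip and Lamp5 in the same nuclei. A gate took nuclei with at least 2 fragments in 1 of these genes, more than their depth predicts (Poisson tail under 0.01), and no such excess in the other 3. Gates were small, at most 92 nuclei in a library. Only 8 sums of at least 30 nuclei could be fitted, for Pvalb and Sst in cortex replicates 1 and 2 and hippocampus replicate 1, and for Lamp5 in cortex replicate 1 and hippocampus replicate 1. No Vip gate reached 30 nuclei, and Vip had no peak in either hippocampus library.

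Gabrd was the 1 member that passed in the gates, lower in Sst-gated nuclei. In cortex replicate 1 it stood at 16 CPM in the Sst gate against 39.1 in the Pvalb gate and 36.9 in the Lamp5 gate. In cortex replicate 2 it was 11.3 against 23.5 in the Pvalb gate, and in hippocampus replicate 1 it was 4.45 against 16 and 27.1. The Sst gate was lowest in all 3 libraries, but its values rest on 55, 4 and 3 cut sites, and that of the Pvalb gate in cortex replicate 2 on 6. The log2 fold change was -1.42 ± 0.39 (adjusted p = 0.036, edgeR, library as a block). Of all genes 1.21% passed in the Sst gate, 0.489% in the Pvalb gate and 0.0896% in the Lamp5 gate. The call for Gabrd was lost when cortex replicate 1 (-1.87, adjusted p = 1.00) or hippocampus replicate 1 (-1.21, adjusted p = 0.67) was left out, without the deepest 10% of nuclei (-1.28, adjusted p = 0.24) and in common regions only (-1.37, adjusted p = 0.089). With gates that took at least 1 fragment, a Poisson tail under 0.05 and no fragment in the other 3 genes, the change was -0.75 (adjusted p = 0.56).

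The other members did not pass in any gate. Gabra4 stood at 107, 31.4 and 60.6 CPM in the Pvalb gate of cortex replicates 1 and 2 and hippocampus replicate 1, against 59.0, 34 and 40.1 in the Sst gate (Pvalb gate 0.58 ± 0.21, adjusted p = 0.31). Gabra5 stood at 39.8, 51.0 and 44.5 CPM in the Sst gate against 65.3, 27.5 and 77.8 in the Pvalb gate (Sst gate -0.59 ± 0.23, adjusted p = 0.28), and passed with cortex replicate 2 left out (-0.76, adjusted p = 0.044). Gabra3 did not pass the filter on low counts. For the 12 member regions dense enough, none passed in any gate, where 0.258%, 2.72% and 0.114% of regions passed for Pvalb, Sst and Lamp5. The test of whether gate differences differ between the brain regions called no gene in edgeR or DESeq2. Its hippocampal sums came from hippocampus replicate 1 alone, so it cannot decide that question.

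To use more nuclei, each library was then split in a broader way, chosen after the data had been seen. Nuclei with at least 1 fragment in a marker gene and a Poisson tail under 0.2 were called high for that gene, and were set against other nuclei of the same library matched on depth. This gave 352 to 483 Pvalb-high, 179 to 383 Sst-high and 210 to 614 Lamp5-high nuclei per library, and 200 and 57 Vip-high nuclei in cortex. The splits share nuclei in their comparison groups, so they are not independent of each other. As a check of the labels, MGE markers rose for 3 of 6 genes and CGE markers fell for 6 of 6 in Pvalb-high nuclei, and 2 of 4 Pvalb check genes (Kcnc1 and Btbd11) rose. Of 4 Sst check genes 1 rose and 1 fell there. In Sst-high nuclei 4 of 6 MGE markers and 3 of 4 Sst check genes rose, while Tac1 and 2 of 7 pan-GABA genes fell. Elfn1 is in both the MGE list and the Sst check list. In Vip-high nuclei Prox1 rose and 3 of 6 MGE markers fell, but none of the 4 Vip check genes passed. In Lamp5-high nuclei 2 of 7 pan-GABA genes (Gad1 and Gad2) rose and none of the 4 Lamp5 check genes passed, though Adarb2 rose and 2 of 6 MGE markers fell, so the Vip-high and Lamp5-high classes are named by their gene alone.

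In Pvalb-high nuclei Gabra4 rose and Gabra2 fell. Gabra4 stood at 96.4, 55.0, 53.4 and 52.5 CPM in the Pvalb-high nuclei of cortex replicates 1 and 2 and hippocampus replicates 1 and 2, against 81.6, 40.9, 42.7 and 47.8 in other nuclei. It was higher in 4 of 4 libraries, by a log2 fold change of 0.27 ± 0.07 (adjusted p = 0.0016). Gabra2 stood at 47.7, 39.7, 43.7 and 59.3 CPM against 53.1, 45.8, 58.8 and 68.9, lower in 4 of 4 libraries by a log2 fold change of -0.25 ± 0.07 (adjusted p = 0.0090). These were 2 of 7 members, where 8.13% of all genes passed. With a stricter limit of 0.05 for the split neither passed (adjusted p = 0.20 for Gabra4 and 0.24 for Gabra2), and Gabra2 also missed in DESeq2 (0.12) and without hippocampus replicate 1 (0.20). Gabrb2, at 0.13 ± 0.05 (adjusted p = 0.072), passed without oligodendrocyte-rich nuclei (0.0096).

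In Sst-high nuclei Gabra5 fell. It stood at 47.0, 32.3, 50.2 and 49.6 CPM against 60.4, 39.4, 54.8 and 59.7 in other nuclei, lower in 4 of 4 libraries, with a log2 fold change of -0.26 ± 0.08 (adjusted p = 0.025). Of all genes 6.19% passed. The call was lost in DESeq2 (adjusted p = 0.16), without cortex replicate 1 (0.35), without hippocampus replicate 2 (0.060), without the deepest 10% of nuclei (0.082) and with the limit of 0.05 (0.36). Gabrd stood at 20.8, 12, 14.2 and 10.3 CPM against 34.9, 17.1, 11.1 and 13.2, lower in the cortex libraries and hippocampus replicate 2 and higher in hippocampus replicate 1 (-0.35 ± 0.15, adjusted p = 0.18). Without hippocampus replicate 1 it was -0.61 (adjusted p = 0.016). In Sst-high nuclei 2 of 9 oligodendrocyte-lineage genes fell (median log2 fold change -0.37), and the part of this in the result was not tested.

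No member passed in Vip-high or Lamp5-high nuclei, where 0.718% and 0.84% of genes did. Gabrd was higher in Lamp5-high nuclei in 4 of 4 libraries, at 33.2, 18.1, 15.5 and 16.4 CPM against 30.2, 14.5, 12.8 and 12.3, but with 0.25 ± 0.11 it missed the threshold (adjusted p = 0.39). A further split set nuclei rich in accessibility of an MGE marker list against nuclei rich in a CGE list. No member passed there either, where 8.83% of genes did, and the largest fitted difference was 0.40 ± 0.21 for Gabrd (adjusted p = 0.28). As a check of these labels, 1 of 4 Pvalb and 1 of 4 Sst check genes were higher in MGE-list nuclei. Of 4 Vip check genes 1 was lower, of 4 Lamp5 check genes 2 were higher and 1 was lower, and 1 of 7 pan-GABA genes was lower. Differences between cortex and hippocampus in these splits were called for none of the 7 genes, where 0.223%, 0.142%, 0% and 0.0513% of genes passed for Pvalb-high, Sst-high, Lamp5-high and MGE-list nuclei. In Lamp5-high nuclei 777 genes had an unadjusted p under 0.05 for that difference. Gabra5 in Pvalb-high nuclei was higher in both cortex libraries, at 65.0 and 38.3 CPM against 58.9 and 36.8, and lower in both hippocampus libraries, at 49.0 and 55.8 against 58.3 and 58.2 (difference -0.27 ± 0.14, adjusted p = 0.74). The lowest p was that of Gabrd in Sst-high nuclei (0.77 ± 0.27, unadjusted p = 0.0054, adjusted p = 0.36).

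**Figure D2:**
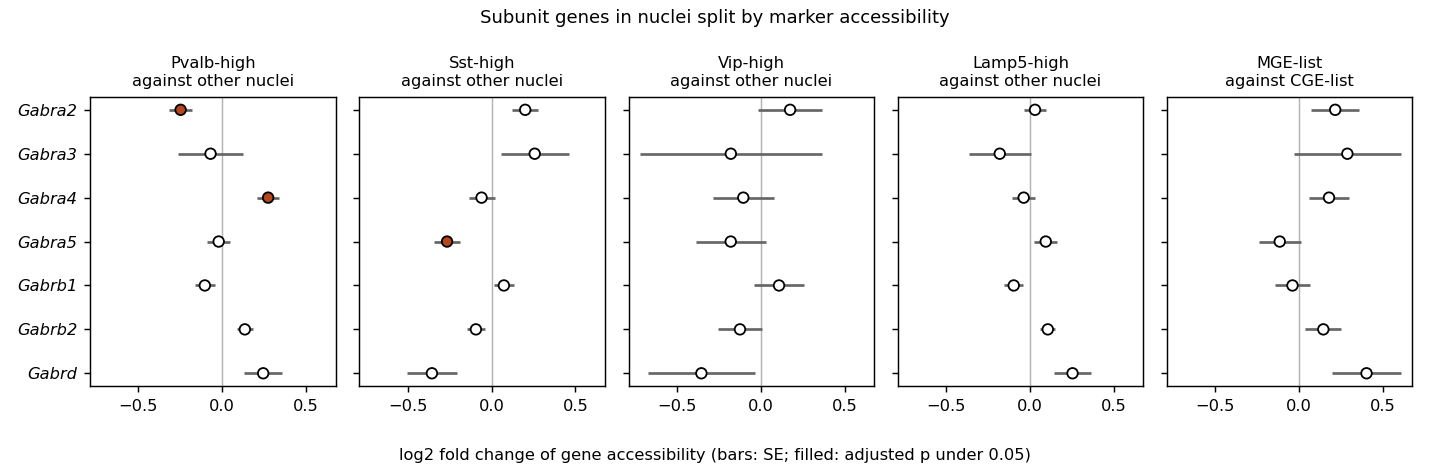
Each panel plots the log2 fold change of the 7 genes for 1 split of the nuclei. Bars are the SE of the fit to 4 libraries (2 for Vip-high), and filled points have an adjusted p under 0.05. Filled points are Gabra4 (0.27) and Gabra2 (-0.25) in Pvalb-high nuclei and Gabra5 (-0.26) in Sst-high nuclei.

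The subunit genes together held 85 distinct regions, of which 73 lay in introns only, 31 were seen in 1 library and 20 in all 4. Gabrb2 and Gabrb1, long genes of 209 and 491 kb, held 6 common regions each. Gabra4 and Gabrb1 lie head to head and share 1 region over their starts (chr5:71656259-71658599), at 32.1, 19.5, 19.2 and 27.6 CPM of cut sites in common regions, whose cut sites cannot be assigned to either gene. The region with the highest mean CPM, not scaled to length, was the Gabrb2 start, at 60.8 and 44.9 CPM in cortex and 61.5 and 61.4 in hippocampus. The next was the Gabra2 start, at 45.4 and 41.5 CPM in cortex and 41.4 and 54.3 in hippocampus. Peaks covered 2128 to 4952 bases of the Gabrb2 start region and 1421 to 2211 of the Gabra2 start region, so this is not an order per kb. Within Gabra4 an intronic region 54 kb from the start (chr5:71602468-71606052) had a mean CPM near that of the start region (26.6 against 24.6), at 37.3, 20.1, 26.0 and 23.1 CPM. Peaks covered 870 to 3585 bases of it, against 905 to 2341 of the start region, and these CPM are not scaled to length. In Gabrb1 the highest was a region 42 kb inside that covers a second RefSeq start, at 32.8, 28.2, 33.2 and 38.9 CPM. Regions counted for Gabra5 overlap more than 1 gene model, so the cut sites behind its gene values cannot be assigned to Gabra5 alone, and its regions are not described singly.

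Within the genes, regions of 1 gene moved in opposite directions. Called log2 fold changes ran from -2.39 to 1.72 in single regions. Both ends lay between MGE-list and CGE-list nuclei, where no whole gene of the 7 was called. Among the splits, whole genes were called only in Pvalb-high and Sst-high nuclei, from -0.26 to 0.27, so the 2 ranges come from different splits. In the smaller gates Gabrd was also called as a whole gene, at -1.42 in the Sst gate. In the MGE-list against CGE-list split 7 of 19 member regions passed (3 higher, 4 lower), where 19% of all regions did. In Sst-high nuclei it was 7 of 20 (2 higher, 5 lower) against 17.3%, in Pvalb-high nuclei 5 of 20 (1 higher, 4 lower) against 13.5%, in Lamp5-high nuclei 1 of 20 against 2.58% and in Vip-high nuclei 0 of 20 against 1.49%.

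The Gabrb2 region 103 kb inside the gene (chr11:42521928-42524068, intron) was more accessible in nuclei of the MGE list. It stood at 38.0, 36.4, 47.1 and 36.2 CPM in MGE-list nuclei of cortex replicates 1 and 2 and hippocampus replicates 1 and 2. In CGE-list nuclei it stood at 15.5, 9.93, 8.53 and 12.6 CPM, so the 2 classes did not overlap. The change was 3.29-fold, a log2 fold change of 1.72 ± 0.23 (adjusted p = 1.6e-05). The same region rose in Pvalb-high nuclei, at 40.3, 42.0, 42.6 and 29.5 CPM against 32.3, 28.3, 32.5 and 20.8 (0.43 ± 0.09, adjusted p = 0.0014). It rose likewise in Sst-high nuclei, at 42.1, 42.3, 49.1 and 34.2 CPM against 33.1, 32.1, 32.9 and 24.9 (0.44 ± 0.10, adjusted p = 0.00088). All 7 alternatives fitted for regions kept each of these 3 calls. The stricter limit of 0.05 for the Pvalb-high and Sst-high splits was not run for regions. In Lamp5-high nuclei it stood at 30.1, 31.1, 23.5 and 14.2 CPM against 36.6, 32.0, 31.4 and 23.7 (-0.37 ± 0.11, adjusted p = 0.067).

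A region further inside Gabrb2, at +152 kb (chr11:42571469-42572262, intron), went the other way. In MGE-list nuclei it stood at 2.18, 0, 3.90 and 4.28 CPM and in CGE-list nuclei at 27.4, 1.42, 15.4 and 7.07 (log2 fold change -2.39 ± 0.49, adjusted p = 0.0013). Cortex replicate 2, whose peak covers 163 of the 794 bases, was low in both classes, with 0 cut sites against 1, and the other 3 libraries were lower in MGE-list nuclei. In Lamp5-high nuclei the region rose, at 14.6, 3.45, 20.1 and 10.1 CPM against 6.89, 1.30, 10.3 and 5.46 in other nuclei, a 2.03-fold difference (1.02 ± 0.19, adjusted p = 0.00061) seen in 4 of 4 libraries and under 7 of 7 alternatives. It fell in Pvalb-high (-0.99 ± 0.24, adjusted p = 0.0042) and Sst-high nuclei (-0.92 ± 0.26, adjusted p = 0.00998), in both with 5 of 7 alternatives. Without cortex replicate 1 those gave adjusted p = 0.082 and 0.091, and without hippocampus replicate 1 they gave 0.063 and 0.071.

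Further Gabrb2 regions moved on the MGE and CGE axis. The region at +86 kb was lower in MGE-list nuclei, at 2.33, 0.827, 9.10 and 4.28 CPM against 11.9, 5.68, 13.1 and 10.1 (-1.50 ± 0.43, adjusted p = 0.015), and missed without cortex replicate 1 (0.24). In cortex replicate 2 the peak covers 93 of the 710 bases, so the values of that library rest on few cut sites. The region at +190 kb was higher (1.10 ± 0.39, adjusted p = 0.0499), with 1 of 7 alternatives keeping the call. In Sst-high nuclei the Gabrb2 start region fell slightly (-0.24 ± 0.08, adjusted p = 0.024, kept by 3 of 7 alternatives) and the region at +116 kb fell (-0.57 ± 0.19, adjusted p = 0.027, kept by 5 of 7). At the gene level Gabrb2 itself differed by 0.14 ± 0.11 between MGE-list and CGE-list nuclei and was not called.

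**Figure D3:**
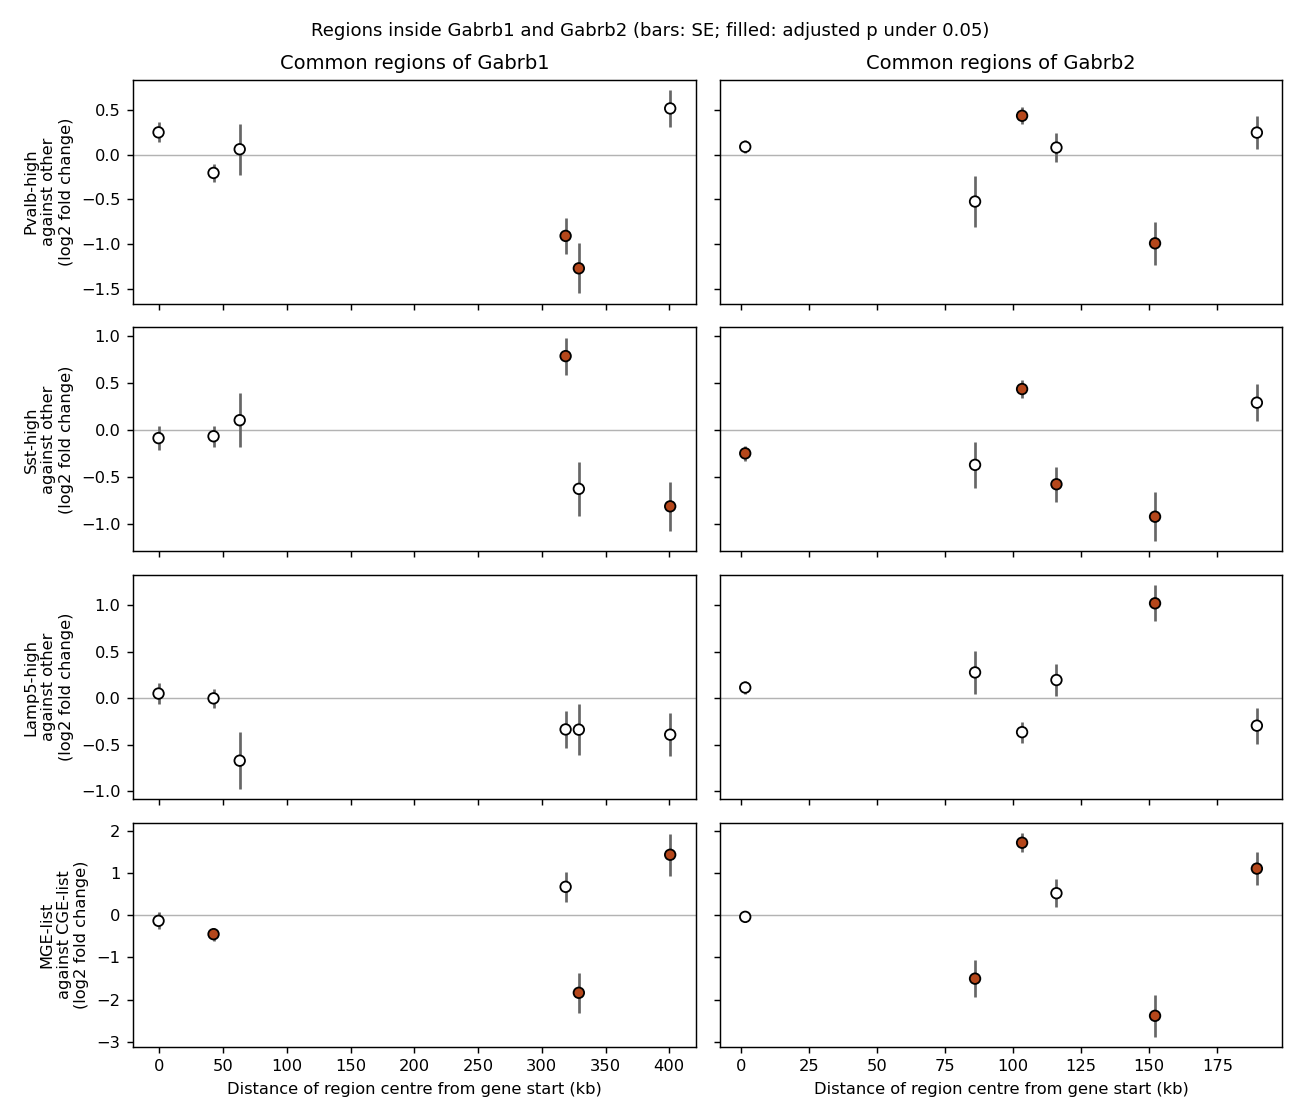
The panels plot the log2 fold change of each common region of Gabrb1 (left) and Gabrb2 (right) against its distance from the gene start in kb, with SE bars and filled points at an adjusted p under 0.05, for 4 splits of the nuclei. In the MGE-list row the Gabrb2 region at 103 kb lies at 1.72 and the region at 152 kb at -2.39, while the start region is not filled.

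In Gabrb1 4 regions inside the gene passed in at least 1 split. The region at +319 kb (chr5:71976408-71977182) fell in Pvalb-high nuclei, at 6.39, 7.35, 4.53 and 7.39 CPM against 15.8, 11.2, 10.7 and 9.08 in other nuclei. It was lower in 4 of 4 libraries (-0.91 ± 0.20, adjusted p = 0.0016), and 6 of 7 alternatives kept the call, the exception being without cortex replicate 1 (-0.70, adjusted p = 0.0502). In Sst-high nuclei the same region rose, at 22.9, 18.8, 16.5 and 7.56 CPM against 10.2, 10.8, 7.42 and 10.2. It was higher in 3 of 4 libraries, with hippocampus replicate 2 the exception (0.79 ± 0.20, adjusted p = 0.0034), and missed without cortex replicate 1 (0.60, adjusted p = 0.093). The difference between the 2 splits was not itself tested.

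The region at +329 kb of Gabrb1 (chr5:71986911-71987443) fell in Pvalb-high nuclei to 2.18, 2.62, 1.65 and 2.82 CPM against 5.57, 4.74, 5.74 and 5.86. The 2 classes did not overlap (0.415-fold, -1.27 ± 0.28, adjusted p = 0.0017), and 7 of 7 alternatives kept the call. It was also lower in MGE-list than in CGE-list nuclei, at 2.10, 0.827, 5.20 and 2.34 CPM against 13.9, 2.84, 8.21 and 9.09 (-1.84 ± 0.47, adjusted p = 0.0070), though not without cortex replicate 1 (-1.25, adjusted p = 0.23). In cortex replicate 2, whose peak covers 255 of the 533 bases, the MGE-list and CGE-list values rest on few cut sites. The region at +401 kb was higher in MGE-list nuclei (1.43 ± 0.50, adjusted p = 0.047) and lower in Sst-high nuclei (-0.81 ± 0.26, adjusted p = 0.027), and each call was lost in 3 alternatives. The region over the second start at +42 kb was lower in MGE-list nuclei in 4 of 4 libraries, at 31.9, 23.2, 32.8 and 38.5 CPM against 44.1, 32.6, 43.3 and 53.0 (-0.45 ± 0.15, adjusted p = 0.037), and 4 of 7 alternatives kept it.

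Among the alpha subunit genes, the Gabra2 start region fell in Pvalb-high nuclei (-0.24 ± 0.08, adjusted p = 0.0498), with 1 of 7 alternatives keeping the call. No common region of Gabra4 or Gabrd passed in these splits.

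**Figure D4:**
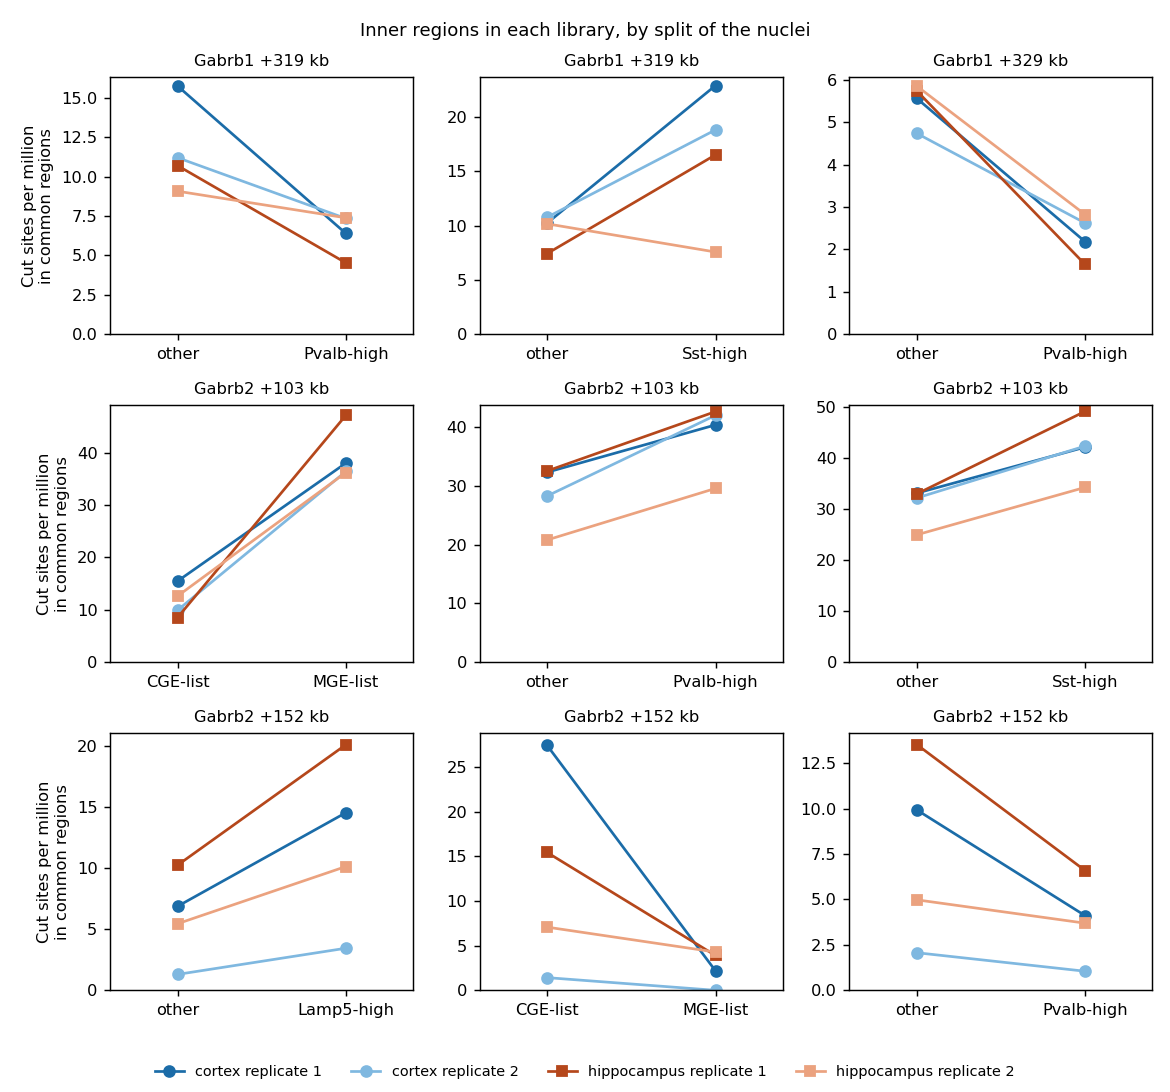
For the 9 pairs of an inner region overlapping a single gene and a split with the lowest adjusted p, each panel plots CPM in common regions in both classes, with 1 line per library. The lines run the same way in all 4 libraries except for Gabrb1 +319 kb in Sst-high nuclei, where hippocampus replicate 2 falls from 10.2 to 7.56. For Gabrb2 +152 kb between CGE-list and MGE-list nuclei, the cortex replicate 2 line is low in both classes. The peak of that library covers 163 of the 794 bases there, so its direction rests on hardly any cut sites.

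None of the 20 regions differed between cortex and hippocampus in how it changed in a split, where 0.148%, 0.109%, 0.00857% and 0.178% of regions did for Pvalb-high, Sst-high, Lamp5-high and MGE-list nuclei. The nearest was Gabrb2 +152 kb between MGE-list and CGE-list nuclei (2.24 ± 0.84, unadjusted p = 0.0097, adjusted p = 0.48). MGE-list nuclei were deeper than CGE-list nuclei in every library, with medians of 52354 against 42234 cut sites in cortex replicate 1 and 8456 against 6864 in cortex replicate 2, whereas the gene-high splits were matched on depth. The part of that difference in depth was not tested. Of the oligodendrocyte-lineage markers, 0 of 8 passed between MGE-list and CGE-list nuclei (median log2 fold change -0.53) and 0 of 9 in Pvalb-high nuclei (-0.08). In MGE-list nuclei 2 of 3 microglia markers tested were higher, while 1 of 4 astrocyte and 1 of 3 endothelium markers were lower. In Pvalb-high nuclei 1 of 4 astrocyte markers was lower. The part of these in the results was not tested.

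In the rest of the GABA receptor system few genes passed. Of the 12 other GABA-A subunit genes 8 could be tested between cortex and hippocampus and none passed, the largest fitted log2 fold changes being 1.15 ± 1.87 for Gabrr3 and 1.10 ± 2.48 for Gabrp, both at 0 in at least 1 library. Their median was 0.13, beside -0.10 over all genes. Of 12 scaffold and trafficking genes such as Gphn, which encodes gephyrin, none passed in that comparison (median -0.15), nor did any gene of either list in any split. Among 5 genes of the GABA-B receptor and its partners, Kctd8, an auxiliary subunit of that receptor, was higher in MGE-list nuclei (0.91 ± 0.12, adjusted p = 4.9e-05) and in Sst-high nuclei (0.39 ± 0.06, adjusted p = 3.6e-05). Gabbr2, which encodes a core subunit of the receptor, was slightly higher in Lamp5-high nuclei (0.12 ± 0.03, adjusted p = 0.047).

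Over the 8 gated sums the genes most like each member, by Pearson's r of log2 CPM centred within library, were Atl1 (0.99), Thap11 and Mboat7 for Gabra2, Dnajb5 (0.99), Ehd1 and Jarid2 for Gabra3, and Esyt1 (0.98), Shroom3 and Iqsec3 for Gabra4. For Gabra5 they were Nubp2 (1.00), Ankrd11 and Smurf1, and for Gabrb1 Mro (0.99), Swsap1 and Ubtf. For Gabrb2 they were Ppp1r12b (1.00), Rps6ka2 and Spsb4, and for Gabrd Cdh20 (0.99), Kmo and Bcas3. The sums share libraries, depth and few nuclei, so these values only describe the 8 sums.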

How the data were processed

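Single-nucleus ATAC-seq was deposited for 4 libraries as counts, whole numbers of transposase cuts in each peak for each barcode, which the authors made with Cell Ranger ATAC 1.2.0 on GRCm38 (mm10), per the labels' processing notes. No normalization had been applied, and peaks had been called per library. Deposited transcription factor counts were not used. A statistical test is not given in the sources used here.

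A gene's value was the sum of cut sites in the library's own peaks overlapping its body or the 2 kb upstream (GENCODE gene models of GRCm38), scaled to CPM of the library total. Region values used merged peaks holding a peak of all 4 libraries, scaled to CPM of the cut sites in those regions. Counting error of each value follows its cut sites, and 1 fragment can leave 2 cut sites, so gates counted fragments. No doublet caller was run. Comparisons without the deepest 10% of nuclei, and without oligodendrocyte-rich nuclei (below 0.5 times the expected pan-GABA and above 2 times the expected oligodendrocyte-lineage cut sites), were run in their place. Sums per library, and per gate and library, were tested with edgeR 4.0.16 (quasi-likelihood, robust, library totals as library sizes, filterByExpr, two-sided, Benjamini-Hochberg over all features, threshold 0.05) in R 4.3.3. Gate and split fits held library as a block. DESeq2 1.42.0 was an alternative, with TMM factors, no filter, common regions, a start window, other gate limits and leaving out each library. The MGE-list split took nuclei with a Poisson tail under 0.05 for one list and over 0.5 for the other. The gene-high and list splits were chosen after seeing the data. Scripts were tested on simulated data.

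All 7 members were described. Of the other lists the genes that passed were named, or else those of largest change, and of the regions the starts, those of highest CPM and those that passed. For each member the 3 genes of highest correlation over the gated sums with a mean of at least 20 CPM were named, leaving out the gate genes and genes sharing a peak. Results at 1 locus are not reported here. The members and lists were chosen with earlier results of these data known.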

Additional observations from a re-analysis of the deposited data

How the results depend on the processing

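Among the member regions described, some passed in each alternative that was fitted for regions. These were Gabrb2 +103 kb in 3 splits, Gabrb2 +152 kb in Lamp5-high nuclei and between the lists, and Gabrb1 +329 kb in Pvalb-high nuclei. The stricter limit of 0.05 for the gene-high splits was not run for regions, so whether these calls survive it is not known. At gene level that limit lost the calls for Gabra4 and Gabra2 in Pvalb-high nuclei and for Gabra5 in Sst-high nuclei. Values of single members and regions kept direction and side of the threshold in 662 alternatives, fell short in 49, passed newly in 6 and changed direction in 31. The 662 include gate fits without hippocampus replicate 2, which repeat the main fit. The cause of the changes was not tested. With few libraries and uneven depth, counts of genes moved widely.

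Between cortex and hippocampus 20 genes passed, against 1 with TMM factors, 153 in DESeq2, 2 in common regions, 6 within 2 kb of the start, 3 without oligodendrocyte-rich nuclei and 6 to 725 with each library left out. For regions 0 passed, against 352 in DESeq2, 560 where at least 50% of the region was covered and 0 to 1262 with a library left out. Whether libraries of the same replicate number belong together is not known, and a correlation over genes of -0.018 cannot decide it. With number as a block 0 genes and 0 regions passed. In the Pvalb gate 71 genes passed, against 17 in DESeq2, 37 in common regions, 231 with looser gates (at least 1 fragment, a Poisson tail under 0.05 and the other 3 genes at 0) and 1 to 126 with a library left out. In the Sst gate it was 176, against 49, 102, 277, 97 without the deepest nuclei and 5 to 293, and in the Lamp5 gate 13, against 2 in DESeq2, 8 in common regions and 2 to 34. For regions in the gates it was 779, against 1196 in DESeq2 and 20 to 779. The interaction called no gene where it could be fitted. Hippocampus replicate 2 had under 30 nuclei in each gate, so leaving it out repeats the main gate fit. The upper end of 779 is such a repeat.

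For the splits chosen after seeing the data, DESeq2, the limit of 0.05 and leaving out a library gave 518, 517 and 420 to 1048 genes for Pvalb-high (1315), 568, 226 and 454 to 852 for Sst-high (1000) and 38, 31 and 18 to 357 for Lamp5-high (136), which had 235 without the deepest nuclei. For MGE-list nuclei DESeq2 gave 819 and leaving out a library 563 to 1433 (1377). With a library left out, regions ranged from 2595 to 6300 (Pvalb-high), 3992 to 7404 (Sst-high), 195 to 1945 (Lamp5-high, 529 in DESeq2) and 4677 to 8388 (MGE-list). Vip-high regions fell to 440 without the deepest nuclei.

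Directions that turned were all of members without a call. Between cortex and hippocampus the log2 fold change was -0.00798 for Gabra2 and -0.27 for Gabra5 near the start, and -0.15 for Gabra5 in common regions. With each library left out it ran from -0.23 to 0.44 (Gabrb2), -0.80 to 0.082 (Gabra4), -0.52 to 0.23 (Gabrb1), -0.023 to 0.56 (Gabra5) and -0.43 to 11.6 (Gabra3). That last value sets the hippocampus against cortex replicate 2 alone, which has no Gabra3 peak, and is no bound. In the Pvalb gate, common regions gave 0.0024 (Gabra2) and 0.085 (Gabrb1), 1 fragment gave 0.012 (Gabrb1), and libraries left out gave -0.14 to 0.0059 (Gabra2), -0.074 to 0.14 (Gabrb1) and -0.017 to 0.35 (Gabra5). With 1 fragment Gabrb1 was -0.056 in the Sst gate and Gabrb2 0.13 in the Lamp5 gate. In Pvalb-high nuclei Gabra5 was 0.0067 without oligodendrocyte-rich nuclei, 0.022 without the deepest and -0.10 to 0.058 with libraries left out, and Gabra3 0.14 without the deepest and -0.32 to 0.086. In Sst-high nuclei Gabra4 was 0.035 in common regions and -0.15 to 0.021. Gabra3 was 1.07 in Vip-high nuclei in DESeq2, Gabra2 -0.14 in Lamp5-high nuclei at the limit of 0.05 and Gabra4 -0.082 to 0.014 there. Between the lists, libraries left out gave -0.012 to 0.36 (Gabra2), -0.080 to 0.062 (Gabrb1) and -0.19 to 0.019 (Gabra5).

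Not fitted for want of nuclei were the gate limit of 0.001, the Vip gate, the list limit of 0.001, Vip-high with a library left out, and the interaction with any library but hippocampus replicate 2 left out. Leaving out that library only repeats the main fit of the interaction.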
